A study of Mus musculus with 5 samples.

Results

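The regions described here are the 200 interior autosomal bins of 1 Mb in which wild-type (WT) SIRT7 ChIP-seq lay lowest against input. They were taken from 1617 eligible bins, of 2738 in the deposited count table. Eligible bins lay on 14 autosomes (1 to 11, 13, 14 and 17), started at 15000000 or later, were not among the last 12 bins of their chromosome and had a mean of at least 100 reads over the 5 libraries. For each bin, the log2 ratio of ChIP to input, after division of each library by its autosomal total, was averaged over the WT ChIP libraries. The set was chosen by these WT ChIP and WT input values alone, as the 200 lowest, which ran from -0.89 to -0.13 with a median of -0.16. WT values of these bins, and calls that use them, are therefore given as a description only. The tests that bear on the set are those of the knockout libraries, whose counts the choice did not use. The spread in those tests was still estimated from the WT ChIP libraries.

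SIRT7 was immunoprecipitated from female C57BL6/CAST hybrid TTF cells, an abbreviation that the labels do not spell out. The 4 groups were WT ChIP (2 libraries), SIRT7-KO ChIP (1 library), WT input (1 library) and SIRT7-KO input (1 library), and all of them came from the same sex and hybrid strain, with no treatment named. Input is the sheared chromatin kept before immunoprecipitation. Nothing in the labels tells if the WT ChIP libraries are separate cultures. The p-values therefore rest on library-to-library spread that may be technical, with a floor set under it that most bins fell below. How the knockout was made, and how many clones it stands for, is not stated in the labels. Read counts per 1 Mb cannot check the labelled cell type against marker expression, nor show at this width whether Sirt7 is deleted.

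SIRT7 is a NAD-dependent deacylase that is concentrated in the nucleolus and acts on chromatin, where it removes acetyl groups from histones at gene promoters. Gene deserts are long stretches of chromosome without protein-coding genes, and are commonly packed as late-replicating chromatin at the nuclear edge. Pieces of mitochondrial DNA have also been copied into nuclear chromosomes during evolution, and short reads from mitochondria can align to such copies.

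Among the 10 lowest bins, 2 held no protein-coding gene and the other 8 held between 1 and 21. The promoters of the longest gene of each were read from RefSeq (GRCm38.p6, 250 bases before to 50 after a listed start site), where 6 of the 8 genes had an entry within the bin, and the first listed window was taken. The 2 with fewest and the 2 with most CG dinucleotides are shown because they span the range of promoter type found in the lowest bins. Capitals mark CG, a motif that reads the same on both strands, and each sequence runs 5′ to 3′ on the strand of its gene.
Izumo3: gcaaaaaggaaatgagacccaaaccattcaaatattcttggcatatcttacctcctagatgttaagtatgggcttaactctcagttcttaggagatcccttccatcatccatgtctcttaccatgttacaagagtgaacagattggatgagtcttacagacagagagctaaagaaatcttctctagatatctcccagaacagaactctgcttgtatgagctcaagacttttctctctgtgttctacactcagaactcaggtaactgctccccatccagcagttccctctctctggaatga
Prl3a1: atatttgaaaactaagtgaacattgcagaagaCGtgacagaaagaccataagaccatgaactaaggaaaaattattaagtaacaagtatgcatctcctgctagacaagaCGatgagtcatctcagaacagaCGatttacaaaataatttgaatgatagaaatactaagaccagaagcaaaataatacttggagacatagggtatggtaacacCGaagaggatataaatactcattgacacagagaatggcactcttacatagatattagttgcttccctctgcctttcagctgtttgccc
Slit2: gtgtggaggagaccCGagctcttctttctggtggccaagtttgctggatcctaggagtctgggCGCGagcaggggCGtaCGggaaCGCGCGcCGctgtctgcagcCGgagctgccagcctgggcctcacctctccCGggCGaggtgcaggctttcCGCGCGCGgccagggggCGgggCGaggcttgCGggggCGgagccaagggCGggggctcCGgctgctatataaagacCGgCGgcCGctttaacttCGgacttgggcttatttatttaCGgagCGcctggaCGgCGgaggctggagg
Adgrl3: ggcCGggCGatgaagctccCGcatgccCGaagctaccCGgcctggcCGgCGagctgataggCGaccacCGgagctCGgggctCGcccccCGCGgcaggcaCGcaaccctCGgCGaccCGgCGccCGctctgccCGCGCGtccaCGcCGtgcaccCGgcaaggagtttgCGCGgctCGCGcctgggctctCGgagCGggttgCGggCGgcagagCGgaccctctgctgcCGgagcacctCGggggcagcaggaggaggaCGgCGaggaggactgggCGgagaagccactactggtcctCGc
The Izumo3 window (chr4:92147172-92147471, minus strand) held 0 CG and that of Prl3a1 (chr13:27259239-27259538, plus strand) held 4. The Slit2 window (chr5:47982905-47983204, plus strand) held 30 and that of Adgrl3 (chr5:81020321-81020620, plus strand) held 40. Izumo3 belongs to a family of sperm proteins, Prl3a1 to the placental prolactin family, Slit2 encodes a secreted axon guidance ligand, and Adgrl3 a latrophilin, an adhesion receptor of synapses. The windows of Slit2 and Adgrl3 lie inside the annotated span of the gene, whose outermost start is at 47981291 and 81019085. CpG-poor promoters of tissue-restricted genes and CpG-rich promoters of developmental genes were thus both present in the lowest bins. In the whole RefSeq promoter table, 94.6% of 32851 windows held at least 1 CG.

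Depth differed strongly between libraries. The KO ChIP library totalled 4968189 reads, WT ChIP replicates 1 and 2 totalled 174003957 and 167007601, and the WT and KO inputs 224205689 and 219168466. WT ChIP counted 58467 and 55726 reads in the median bin of the set, KO ChIP 1736, and the WT and KO inputs 84846 and 86216. KO values thus carried a median counting error of 0.035 on the log2 scale. The median SD between the WT libraries was 0.011, which is a different measure, since both WT ratios share the same input. Reads that could be told apart by parent are listed as genome1 and genome2, and along the autosomes the genome1 shares of KO ChIP lay 7.37% of the way from those of KO input to those of WT input, toward WT on 18 of 19 autosomes.

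The question for the knockout was whether bins low in WT ChIP were also low in KO ChIP against KO input. They were: the median log2(ChIP/input) of the 200 bins, on the TMM scale used from here on, was -0.15 in both WT libraries and -0.17 in KO (KO range -0.66 to 0.14). The other 1417 eligible bins had medians of 0.016, 0.017 and 6.65e-05. KO ChIP was called lower than KO input in 173 of the 200 bins (86.5%) and higher in 0, at an adjusted p under 0.05 in edgeR's quasi-likelihood test. Against this stand backgrounds of 29.1% called lower among the eligible bins and 28.7% among all 2582 fitted bins, and 20.8% and 21.6% called higher. KO values were below 0 in 198 of the 200 bins and in 708 of the 1417 others.

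The number of calls depended on how the spread was estimated from the single pair of WT libraries. It was 85 of 200 (42.5%, beside 7.79% of eligible bins) without a floor under the dispersion, 90 (45.0%, beside 8.47%) with limma-voom and 9 (4.5%, beside 0.618%) with a quasi-Poisson fit, which called 85 at an unadjusted p under 0.05. With the estimated WT-like reads subtracted from KO ChIP, 171 bins were called lower and the median was -0.16.

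**Figure D1:**
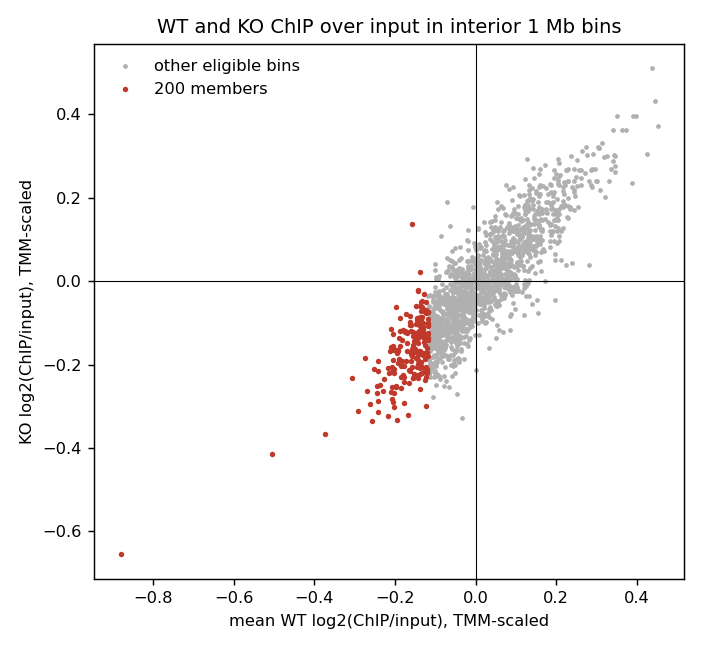
Log2(ChIP/input) of each eligible 1 Mb bin, TMM-scaled, with the mean of the 2 WT ChIP libraries on the horizontal axis and the single KO ChIP library on the vertical axis. Red points are the 200 bins chosen for low WT values and grey points the other 1417 eligible bins. All but 2 red points lie below 0 in KO, and the lowest is at -0.66.

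Across all 1617 eligible bins, the value that chose the set and the KO value had r = 0.87 (rho 0.86), and within the 200 bins r = 0.65 (rho 0.47). These correlations are across bins that share libraries, depth and read mapping, and describe these libraries only. Of the 200 bins, 111 (55.5%) were also among the 200 lowest of KO, a list that holds 12.4% of the eligible bins.

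WT ChIP was called lower than WT input in 199 of the 200 bins, beside 37.9% of eligible and 37.5% of all fitted bins, which is what the choice fixed. The exception was the bin of chromosome 14 from 19000001 to 20000000, where the WT libraries disagreed, at -0.33 and 0.019, and KO was at 0.14 (SE 0.35). That bin held 1141861 reads in KO input, of which 2.38% were assigned to a parental genome. Its longest gene is Gng2, a G protein gamma subunit. For the difference WT minus KO, 2 of the 200 bins were called lower and 1 higher, beside 0.495% and 2.35% of eligible bins and 0.387% and 2.44% of all fitted bins. Since WT values chose the bins, nothing is read from these counts.

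The lowest bin of all lay on chromosome 1 from 24000001 to 25000000 and held the collagen genes Col19a1 and Col9a1, Fam135a, the lysosomal cobalamin transporter gene Lmbrd1 and Sdhaf4, an assembly factor of mitochondrial complex II. WT ChIP counted 57605 and 59484 reads there and KO ChIP 1847, and the inputs 142136 (WT) and 127752 (KO). The WT values were -0.94 and -0.82 and the KO value -0.66 (SE 0.037, edgeR adjusted p 1.65e-61). All ChIP libraries were far below their input here, KO least so. This bin also holds Gm10925, a pseudogene of 681 bp from 24613971 to 24614651 whose listed synonyms include mt-Atp6, the mitochondrial gene of an ATP synthase subunit. It was the sole annotated nuclear pseudogene with such a synonym, and so 1 of the 200 bins and 0 of the 1417 others held one. Mitochondrial copies that the annotation does not name were not analysed here.

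The second lowest bin, on chromosome 2 from 22000001 to 23000000, held Myo3a, a myosin of sensory hair cells, Gad2, an enzyme of GABA synthesis, and the actin regulators Abi1 and Apbb1ip. The WT values were -0.53 and -0.48 and the KO value -0.41 (SE 0.037, edgeR adjusted p 3.11e-26). The order of the 3 ChIP libraries was the same as in the chromosome 1 bin, and as in some other low bins. No annotated pseudogene there has a mitochondrial synonym.

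In these 2 bins the shortfall lay mostly in reads assigned to neither parent. Values by read class are centred on the median eligible bin of the same class and library. In the chromosome 1 bin, unassigned reads gave -1.80 and -1.49 in WT and -1.04 in KO. Genome1 reads gave -0.026, -0.027 and -0.19, and genome2 reads 0.011, 0.0014 and 0.067. By allele-assigned reads alone the bin ranked 790 of 1617 eligible bins in WT, near the middle. In the chromosome 2 bin, unassigned reads gave -0.92, -0.83 and -0.66, genome1 reads -0.11, -0.11 and -0.091, and genome2 reads 0.016, 0.030 and -0.041, and its rank by allele-assigned reads was 513. The gap between unassigned and allele-assigned reads was -1.64 in WT and -0.95 in KO for the first bin, and -0.82 and -0.60 for the second. These were the 2 widest negative gaps of all eligible bins in WT and in KO, and the third in WT was -0.19, in the chromosome 14 bin of Gng2.

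**Figure D2:**
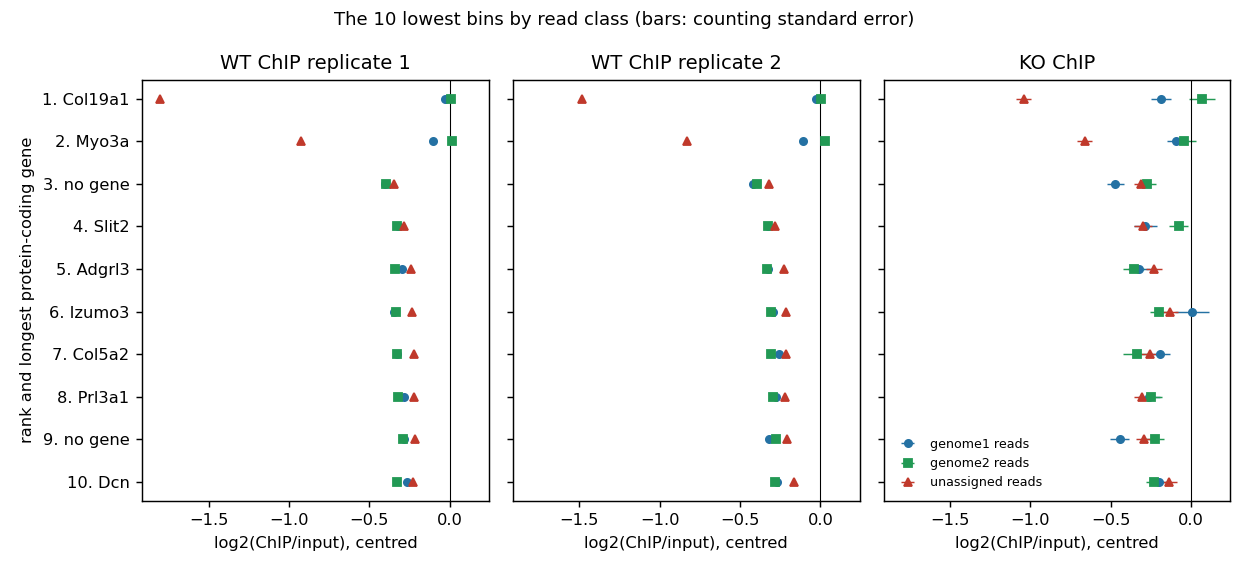
Log2(ChIP/input) of the 10 lowest bins in each ChIP library, by read class and centred on the median eligible bin of that class, with bars for the counting standard error. In the first 2 bins the unassigned reads (triangles) stand far to the left, down to -1.80. In WT both parental classes lie near 0 in the first bin, and genome1 reads are at -0.11 in the second. In the other 8 all WT classes are below 0.

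Unassigned reads exceeded those of neighbouring bins most in the inputs. Both bins were singled out for this comparison after their values had been seen. Against the median of the 4 flanking bins, unassigned reads in the chromosome 1 bin were 3.66-fold in WT input and 3.18-fold in KO input, but 1.08-fold and 1.34-fold in WT ChIP and 1.49-fold in KO ChIP. In the chromosome 2 bin the values were 2.02-fold and 1.84-fold in the inputs and 1.06-fold, 1.14-fold and 1.18-fold in the ChIP libraries. Of the reads aligned to chromosome M, 384590 of 486015 in WT input and 313292 of 397168 in KO input were assigned to genome2. The unassigned reads above the flanks were set against all chromosome M reads, of any class. They came to 14.3% and 14.4% in WT and KO input for the first bin and 8.41% and 8.32% for the second. With the flanks scaled by allele-assigned reads these became 13.8% and 13.8%, and 9.85% and 10.3%. Each bin thus held nearly the same proportion to chromosome M in both inputs. In ChIP that proportion moved with the scaling. For the chromosome 1 bin it went from 6.46% to -2.39% and from 12.5% to 7.84% in WT, and from 15.1% to 11.9% in KO. For the chromosome 2 bin it went from 8.38% to 37.2% and from 7.96% to 20.4% in WT, and from 7.72% to 19.7% in KO. The ChIP proportions therefore could not be read.

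Chromosome M itself was depleted in ChIP. WT ChIP counted 21904 and 49675 reads there and KO ChIP 2026, and the inputs 486015 (WT) and 397168 (KO). As log2(ChIP/input), WT stood at -4.11 and -2.85 and KO at -2.16. The order of the 3 ChIP libraries was that of the chromosome 1 and chromosome 2 bins. Some other low bins, such as those of Izumo3 and Dcn, had the same order, so it is not particular to these bins. The part of mitochondrial reads in the values of these bins was not tested.

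**Figure D3:**
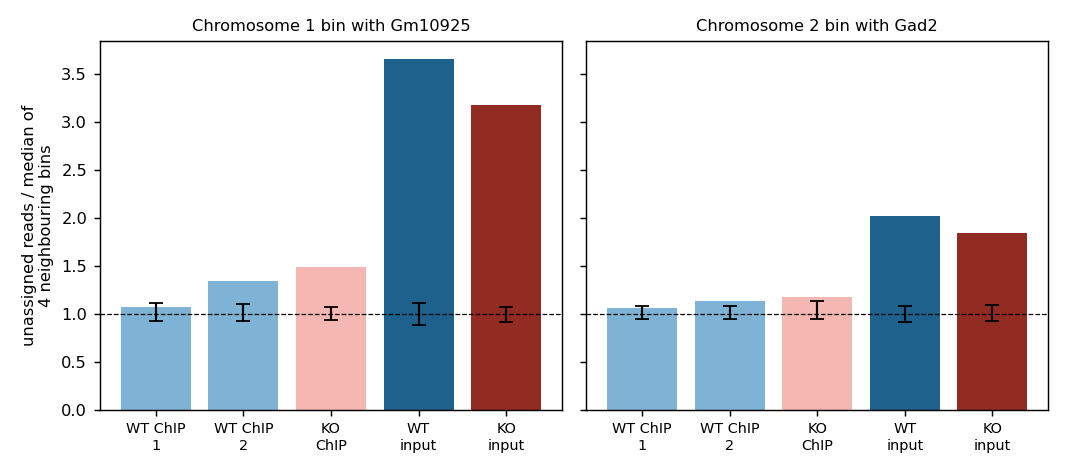
Unassigned reads of the 2 lowest bins in each library, as a multiple of the median of their 4 neighbouring bins, with brackets for the lowest and highest neighbour. The WT and KO inputs reach 3.66 and 3.18 in the chromosome 1 bin and 2.02 and 1.84 in the chromosome 2 bin, and the ChIP libraries stay at or under 1.49.

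In WT the other 8 of the 10 lowest bins were low in both parental read classes, and all 8 were called lower in KO. The lowest was a gene desert on chromosome 10 from 16000001 to 17000000, at -0.38 and -0.37 in WT and -0.37 in KO (SE 0.035, edgeR adjusted p 3.73e-23). WT ChIP counted 83638 and 80013 reads there and KO ChIP 2552, and the inputs 139824 (WT) and 144477 (KO). It ranked first of all eligible bins by allele-assigned reads, with genome1 at -0.40 and -0.42, genome2 at -0.40 and -0.39 and unassigned reads at -0.35 and -0.32 in WT. In KO the classes gave -0.47, -0.27 and -0.31. The neighbouring desert from 15000001 was at -0.26, -0.26 and -0.34.

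On chromosome 5 the bin from 47000001, of which Slit2 covers 1.87%, was at -0.31, -0.31 and -0.23, and the bin from 81000001, of which Adgrl3 covers 80.9%, at -0.29, -0.29 and -0.31. These are the CpG-rich promoters printed above, and both bins lay low whether the gene filled them or not. The bin from 48000001, which holds most of Slit2, was also in the set but less low, at -0.15, -0.14 and -0.10. The Izumo3 bin of chromosome 4 from 92000001, covered to 0.29% by genes, was at -0.29, -0.26 and -0.18. The chromosome 13 bin from 27000001 was at -0.27, -0.26 and -0.29 although it holds 21 protein-coding genes, all of the prolactin family, which cover 16.5% of it.

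The remaining 2 held extracellular matrix genes. The chromosome 1 bin from 45000001, with the fibrillar collagen genes Col3a1 and Col5a2, the ribosome biogenesis gene Wdr75 and the iron exporter gene Slc40a1, was at -0.29, -0.25 and -0.26. The chromosome 10 bin from 97000001, with the small leucine-rich proteoglycan genes Dcn, Lum, Kera and Epyc, was at -0.27, -0.23 and -0.21. The fibroblast and matrix list placed genes in 17 eligible bins, 3 of them in the set (the third with the mesenchymal homeobox gene Prrx1, KO -0.17), and all 3 were called lower in KO. The other 14 had a KO median of 0.11 and 0 were called lower, up to the fibrillar collagen gene Col5a1 on chromosome 2 at 0.20 and 0.23. Bins of fibrillar collagen genes therefore lay at both ends of the range.

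By KO value, the 5 lowest were the chromosome 1, chromosome 2 and both chromosome 10 bins above and a chromosome 8 bin from 54000001 with the neuronal membrane gene Gpm6a and the lymphatic growth factor gene Vegfc. That bin was at -0.19 and -0.20 in WT and -0.33 in KO (edgeR adjusted p 1.19e-14). The 5 highest in KO were the chromosome 14 bin of Gng2 and 4 others, none of them called. Of these, the chromosome 2 bin from 117000001, with the Ras regulators Rasgrp1 and Spred1, was at -0.15, -0.13 and 0.023. The bins of Mctp1 (from 76000001 on chromosome 13), Plcb1 and Ano3 were at -0.021, -0.025 and -0.031 in KO and between -0.15 and -0.13 in both WT libraries. Another bin of Mctp1 in the set, from 77000001, was at -0.22, -0.14 and -0.19, and was called lower in KO.

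At the limit of the set, the values of the choice were -0.1257 for the bin of Bnc2, -0.1257 for that of Gm6098 and -0.1252 for that of Lama2 just inside, and -0.1251 for Map2k6, -0.1248 for Epha7 and -0.1246 for Dsel just outside. The limit thus fell within a continuous range. Bins outside the set that touched one of its bins, 232 in number, had a KO median of -0.081, and the 1185 that did not touch one had 0.017.

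Gene deserts made up a larger share of the set. No protein-coding gene overlapped 45 of the 200 bins (22.5%) and 96 of the 1417 others (6.77%). The median bin held 2 protein-coding genes, which covered 21.6% of it, and the median other bin 7, which covered 45.3%. More than 10 genes were found in 9 bins of the set (4.5%) and in 498 others (35.1%). With 1 WT library left out of the choice, the share without a gene was 26.5% without replicate 1 and 17% without replicate 2. All 200 bins held some annotated gene when noncoding genes and pseudogenes were counted.

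Gene number alone did not separate the set. Most of the 141 deserts among the eligible bins lay outside it: 31.9% of them were in the set, as were 20.9% of bins with 1 or 2 genes, 16.0% of those with 3 to 5, 9.41% of those with 6 to 10 and 1.78% of those with more than 10. Among the other eligible bins the KO median rose over these 5 classes, from -0.11 and -0.067 through -0.016 and 0.0054 to 0.073. Within the set it was -0.17, -0.19, -0.17, -0.13 and -0.17. KO calls were made in 39 of 45 deserts of the set and in 52 of the 96 other deserts, and in 8 of 9 and 41 of 498 bins with more than 10 genes. Across all eligible bins gene number and KO value had r = 0.45 (rho 0.53), and within the set r = 0.077 (rho 0.12), where the range of values is cut short by the choice.

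**Figure D4:**
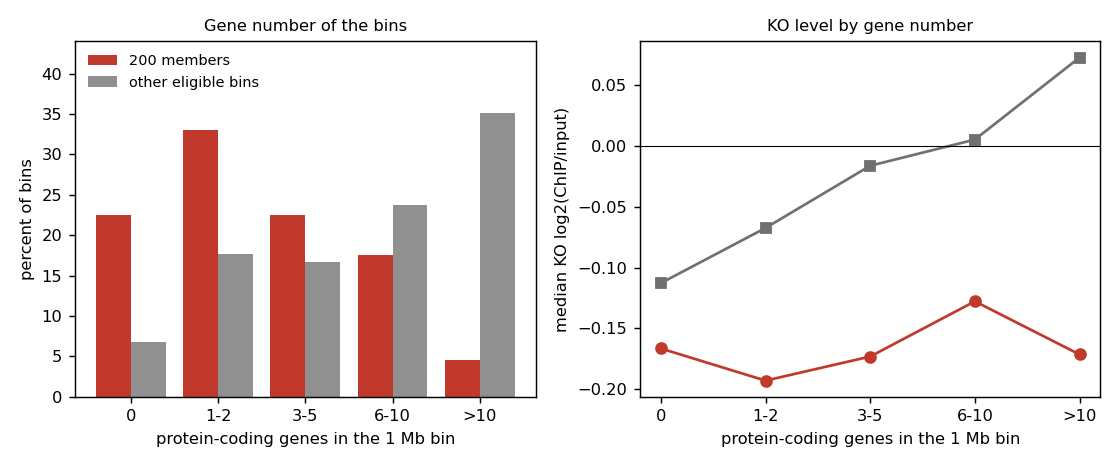
Left, percent of the 200 bins (red) and of the 1417 other eligible bins (grey) by number of protein-coding genes. Right, median KO log2(ChIP/input) of the same classes, which runs from -0.11 to 0.073 in the other bins and stays between -0.19 and -0.13 in the 200 bins, marked by red circles.

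The bins richest in genes were clusters of related genes. The chromosome 4 bin from 88000001 held 36 protein-coding genes, among them the type I interferon genes Ifnb1 and Ifna1 and the tumour suppressor candidate Focad, and was at -0.16, -0.16 and -0.17 (edgeR adjusted p 5.61e-05). The prolactin bin came next with 21. The third, on chromosome 2 from 148000001, held 16, including cystatin protease inhibitors such as Cst3 and the endoderm factor Foxa2, and was at -0.13, -0.11 and -0.077, which did not pass (edgeR adjusted p 0.061).

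The gene lists were spread thinly over the set, which is 12.4% of the eligible bins and in which 86.5% of all bins were called lower in KO. The set included 4 of 36 axon guidance bins (all 4 called), 5 of 55 synaptic adhesion bins (4 called), 4 of 48 neurotransmitter receptor bins (3 called) and 7 of 52 potassium channel bins (7 called). Calls within the set thus came at about its own rate. Outside it, 2 of 32, 18 of 50, 7 of 44 and 3 of 45 bins of these lists were called lower, with KO medians of 0.073, -0.030, 0.032 and 0.081. In the set, Epha5, an ephrin receptor, was at -0.12, -0.15 and -0.22, and Grik2, a kainate receptor subunit, at -0.12, -0.15 and -0.22. A bin within Dlg2, a synaptic scaffold gene, was at -0.19, -0.18 and -0.26. The bins of Cntnap2, a neurexin-family adhesion gene, and Gabrg3, a GABA receptor subunit, were not called, at -0.094 and -0.063 in KO.

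Long genes, which span 500 kb or more, lay in 34 bins of the set (17%) and 215 others (15.2%). KO was called lower in 30 of the 34, near the rate of the whole set. Outside the set KO was called lower in 66 of the 215, a larger share than the 297 of all 1417 other eligible bins. Lama2, a laminin chain of muscle basement membrane, had 2 bins in the set, at -0.25, -0.24 and -0.29 and at -0.12, -0.11 and -0.13. Lrrc4c, a netrin-G ligand gene that was not on the synaptic adhesion list, also had 2, at -0.25, -0.23 and -0.27 and at -0.18, -0.20 and -0.17.

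Of the eligible bins with olfactory receptor genes, 1 of 66 was in the set, and of those with vomeronasal receptor genes 0 of 38. For cadherin genes it was 1 of 10, for protocadherin genes 2 of 10, for ribosomal protein genes 3 of 50 and for widely used reference genes 0 of 12. The 3 ribosomal protein bins, of Rps23, Rps3a1 and Rps27a, were called lower in KO at -0.22, -0.12 and -0.13, whereas the other 47 had a KO median of 0.12. A list of name patterns for certain tandem gene families, which did not include interferon, prolactin or cystatin genes, matched 45 bins. Of these, 4 were in the set, but Ugt8a and Cyp20a1, which matched by name, do not lie in such clusters. The others hold the Skint and Serpinb families.

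Promoters of protein-coding genes had close to the same base composition inside and outside the set. The 646 RefSeq promoter windows of protein-coding genes in the 200 bins had a median of 13 CG and 55.7% GC, and the 14131 in other eligible bins 13 CG and 56.7% GC. At least 10 CG were present in 56.8% and 57.0% of them. With the windows of noncoding genes included, the set was lower, at a median of 6 CG and 49.0% GC against 7 CG and 53.3% GC, with at least 10 CG in 38.9% and 44.3%. Base composition of whole bins was not analysed here. The median share of allele-assigned reads in KO input was 56.1% in the set and 55.8% in the others, and the median KO input count was 86216 and 76180 reads. The part of the higher input count in the lower ratio was not tested.

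The set was uneven along the genome. Chromosome 3 had 30 of its 134 eligible bins in it (22.4%), chromosome 10 had 22 of 104 (21.2%), chromosome 13 had 18 of 94 (19.1%), and at the other end chromosome 11 had 4 of 96 (4.17%) and chromosome 7 had 3 of 119 (2.52%). All bins of the set were called lower in KO on chromosomes 10 (22 bins), 5 (14), 8 (9), 9 (7) and 17 (6). Neighbouring bins of the set formed 39 runs of 2 or more, holding 108 bins (54.0%), while 92 stood alone.

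**Figure D5:**
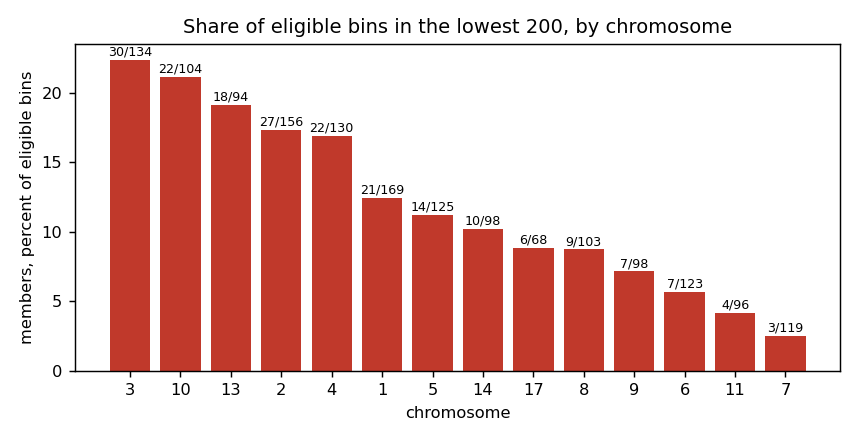
Percent of the eligible bins of each chromosome that belong to the 200 lowest in WT ChIP, with the counts above the bars. Chromosome 3 is highest at 22.4% and chromosome 7 lowest at 2.52%.

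The longest run spanned 6 bins on chromosome 5 from 79000001 to 85000000, with Adgrl3, Tecrl and Epha5 and 3 gene deserts. Its medians were -0.16 and -0.16 in WT and -0.23 in KO, and all 6 bins were called lower in KO. Runs of 5 bins lay on chromosomes 2, 13 and 10. The chromosome 2 run, from 44000001 to 49000000, holds Arhgap15, the transcription factor gene Zeb2 and the activin receptor gene Acvr2a, and was at -0.20, -0.19 and -0.25 with 5 called. The chromosome 13 run, from 87000001 to 92000000, holds the matrix genes Vcan, Hapln1 and Edil3, and was at -0.14, -0.13 and -0.22 with 4 called. The chromosome 10 run, from 26000001 to 31000000, holds Lama2, the receptor phosphatase gene Ptprk and the Wnt agonist gene Rspo3, and was at -0.20, -0.20 and -0.19 with 5 called. In the first 3 of these 4 runs the KO median lay below both WT medians.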

How the data were processed

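Per the labels, 5 ChIP-seq libraries were sequenced: SIRT7 ChIP of WT (2) and SIRT7-KO (1) cells and 1 input of each. The authors deposited whole-read counts per 1 Mb bin for all, genome1, genome2 and unassigned reads. The build was mm10, and the tools named were Bowtie2 2.2.9, SAMtools 0.1.19, Trimmomatic 0.36 and FastQC 0.11.3, per the submitters' processing notes. How reads were assigned to a parent, and which parent genome1 is, are not given in the sources used here. A deposited table of ratios was not used.

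Counts of 2582 autosomal and X bins (mean of at least 100 reads) went into edgeR 4.0.16 under R 4.3.3 (TMM scaling, 4 group means, quasi-likelihood test, dispersion floor 1e-04), with Benjamini-Hochberg adjustment over all of them. The fitted dispersion was under the floor in 2513 of the 2582 bins, and the floor took its place there. Only the pair of WT ChIP libraries gives a residual degree of freedom (1), and the KO libraries and inputs, 1 each, were taken to vary like that pair. DESeq2 1.42.0, limma 3.58.1 (voom), other floors, scalings, count minimums, set sizes and read classes were tried. A quasi-Poisson fit, subtraction of WT-like reads from KO ChIP and a choice of bins on allele-assigned reads were added after seeing the data. The fit was tested on simulated counts. These were drawn with a dispersion of 1e-04 in every library, equal to the floor, so they could not test whether the floor is right.

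Genes were placed with the RefSeq table of GRCm38.p6, the patch release of mm10, with 21896 protein-coding genes; a gene counts in each bin it overlaps. The bins and lists were chosen with earlier results of these data known. Bins named were the 10 lowest, the 5 lowest and 5 highest in KO, 3 on either side of the limit, the 4 longest runs, those with a mitochondrial pseudogene and the 3 with most genes. Genes named were listed genes and the longest gene of each; other genes in the text were chosen after their values were seen. Bins share libraries and are not replicates.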

Additional observations from a re-analysis of the deposited data

Results flagged for a closer look

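Of the 200 bins, 3 differed between WT and KO in edgeR's test of the difference itself, and 1 of them also had both WT libraries on one side of 0 and KO on the other. WT values chose the bins, so these differences are descriptions. In the chromosome 1 bin from 24000001, which holds Gm10925, WT minus KO was -0.224 (SE 0.043). In the chromosome 2 bin from 117000001, with Rasgrp1, Spred1 and Fam98b, WT minus KO was -0.162 (SE 0.047), with KO at 0.023 and both WT libraries below 0. In the chromosome 3 bin from 47000001, which holds no protein-coding gene, WT minus KO was 0.179 (SE 0.047), from -0.10 and -0.14 in WT and -0.30 in KO.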

How the results depend on the processing

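The share of the 200 bins called lower in KO was 86.5%, and it was 42.5% without a dispersion floor, 45.0% with limma-voom and 4.5% with the quasi-Poisson fit. In the other fits and choices of bins it lay between 77.5% and 94.0%, and 83.0% to 85.5% with 1 WT library left out of the choice. No bin of the set was called higher in KO in any of these fits. The share without a protein-coding gene was 16.0% for the 100 lowest bins, 0.0% when all annotated genes were counted and 17% to 26.5% with 1 WT library left out. The median gene number was 8.0 with all annotated genes. The KO median of -0.17 became -0.19 for the 100 lowest bins, -0.14 for the 400 lowest, and -0.15 with TMM from autosomal bins and with unassigned reads alone. When bins were chosen on allele-assigned reads, 166 of 200 were shared and 0 held the mitochondrial pseudogene, in place of 1. Of 15 named bins called in KO, 2, 3 and 8 were lost in the first 3 of these fits, and 0 changed sign. No paired analysis was possible because only the WT ChIP libraries carry replicate numbers. Leaving out a WT library leaves no residual degree of freedom, so only the choice was repeated. Alternatives on the length of mitochondrial insertions were not run, since no genome sequence was used here. Depth limits the KO values, with a counting error of 0.035 per bin, and a KO group of 1 library has no spread of its own.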

Other observations

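MicroRNA genes lay in 25 of the 200 bins (12.5%) and in 387 of the 1417 other eligible bins (27.3%). The 25 bins had a KO median of -0.14, with 21 called lower than input, and the 387 others had one of 0.063, with 40 called lower. Among the 200 lowest bins of KO, 89 were not in the set chosen on WT, and those had a KO median of -0.19. KO values chose these 89 bins, so nothing is read from that median.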
